A study of Mus musculus with 9 samples.

Results

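Nodal, its Lefty antagonists and 6 of their signalling components were followed through exit from self-renewal in mouse embryonic stem cells. The group was chosen by gene name and held the ligands Nodal and Gdf3, the secreted antagonists Lefty1 and Lefty2, the co-receptor gene Tdgf1, the receptors Acvr1b and Acvr2b, the signal transducer Smad2 and its DNA-binding partner Foxh1. All 9 names were found among the 35896 genes to which the transcripts were assigned, and all 9 passed the filter on low counts, which kept 14648 genes. On GRCm38, Nodal (chromosome 10, plus strand), Gdf3 (chromosome 6, 122605403 to 122610087, minus), Tdgf1 (chromosome 9, 110939603 to 110946158, minus), Acvr1b (chromosome 15, 101174067 to 101213684, plus), Acvr2b (chromosome 9, 119402118 to 119434995, plus), Smad2 (chromosome 18, plus) and Foxh1 (chromosome 15, 76668225 to 76669948, minus) lie apart from the Lefty pair. None of the 9 shares annotated exonic bases with another gene.

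Nodal is a ligand of the TGF-beta family that binds a complex of type I and type II activin receptors together with the co-receptor Cripto, the product of Tdgf1. The receptors phosphorylate SMAD2 and SMAD3, which enter the nucleus with SMAD4 and act on target genes with partners such as FOXH1. Nodal and the Lefty genes are themselves targets of this signal, and Lefty proteins antagonise it outside the cell. The pathway is known for maintaining the epiblast and for patterning the early embryo.

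The study used E14, an established mouse embryonic stem cell line, grown on gelatin in medium with serum. All 9 libraries came from this line, and all carry the time label 72 h. The 3 libraries named LIF2i here came from control cells kept in the cytokine LIF with the MEK inhibitor PD0325901 and the glycogen synthase kinase 3 beta inhibitor CHIR99021, each at 1 µM. The 3 libraries named no LIF2i came from control cells incubated for 72 h without LIF and without both inhibitors. The 3 CK666 libraries came from cells withdrawn in the same way for 72 h while exposed to CK666 at 80 µM. This compound blocks the Arp2/3 complex, the nucleator of branched actin networks. It was dissolved in DMSO, and the labels do not state that the controls received DMSO, so drug and solvent cannot be told apart.

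The libraries held 16894327 to 22550952 estimated counts. Genes with a count above 0 numbered 15690 to 17605 in the replicate 1 libraries and 18166 to 18749 in replicates 2 and 3, so replicate 1 of every group stood apart. The pluripotency markers Pou5f1, Sox2, Nanog, Sall4, Lin28a, Dppa4 and Dppa5a summed to 4226 to 10414 TPM (abundance scaled to library size and transcript length) with LIF2i, to 3771 to 4457 TPM without and to 4083 to 6173 TPM with CK666, and 5 of the 7 were called for withdrawal and 0 for CK666. Pou5f1 and Dppa5a made up most of these sums. Of the genes called, Lin28a was higher, and Sox2, Nanog, Sall4 and Dppa5a were lower. These calls and those of the other markers stand beside 40.7% of all genes called for withdrawal and 2.05% for CK666. The 6 fibroblast markers summed to 5.97 to 13.4, 24.6 to 33.6 and 15.9 to 25.7 TPM in the 3 groups, with 4 of the 6 called for withdrawal and 0 for CK666 by edgeR. These 4 were higher after withdrawal, Pdgfrb was lower without a call, and Lum was at 0 in the LIF2i and CK666 libraries. The 6 primitive endoderm markers summed to at most 30.4 TPM, with 1 called for withdrawal, and the 5 primitive streak markers to at most 10.7 TPM, with 1 called. The 5 trophoblast markers summed to at most 9.04 TPM and had no call in either comparison; Eomes is in both of these lists. The 4 neural markers summed to 29.4 to 184, 12.8 to 64.2 and 19 to 64.4 TPM, with 2 called for withdrawal. Those were Sox1 and Tubb3, both lower, while Pax6 was higher without a call. The part of these other markers in the results was not tested. In cultures measured as a whole, fewer expressing cells and less RNA per cell cannot be told apart.

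Lefty1 and Lefty2 moved in opposite directions after withdrawal, and their coding sequences are close enough that reads have to be divided between them. Both genes lie on chromosome 1 of GRCm38, Lefty2 at 180893108 to 180899103 and Lefty1 at 180935022 to 180938400, on the plus strand. Their coding sequences are each 1104 bases long and identical at 1014 aligned bases (91.8%), with a longest identical run of 140 bases. Of the 31-base words in the annotated transcripts, 25.7% of those of Lefty1 also occur in Lefty2, and 17.2% of those of Lefty2 occur in Lefty1.

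The promoter of Tdgf1 carried matches to the FOXH1 and SMAD cores. Binding to them, and any part in the lower Tdgf1 level of both withdrawn groups, was not tested. RefSeq promoters (GRCm38.p6, 250 bases before to 50 after the gene start) were matched for 4 of the 9 members, Nodal, Tdgf1, Acvr1b and Acvr2b. Both strands were searched for TGTNNATT, the core bound by FOXH1, and for CAGAC, a core bound by SMAD proteins. The Tdgf1 window held 2 matches to TGTNNATT, at -127 to -120 and -101 to -94 from the gene start, and 1 match to CAGAC between them, at -113 to -109. Of all 32851 promoters of this length, 12.2% held TGTNNATT and 49.6% held CAGAC. The windows of Nodal and Acvr1b held no match, and that of Acvr2b held 1 match to CAGAC, at -233 to -229. The 250 bases before the Tdgf1 start are shown for the position of these matches, which are in capitals; both TGTNNATT matches read on the opposite strand, and no match overlaps another (chr9:110946159-110946408, GRCm38.p6, minus strand). The run gtaatgggcgtggggcccc, 19 bases long, occurs in 2 copies downstream of them.
Tdgf1: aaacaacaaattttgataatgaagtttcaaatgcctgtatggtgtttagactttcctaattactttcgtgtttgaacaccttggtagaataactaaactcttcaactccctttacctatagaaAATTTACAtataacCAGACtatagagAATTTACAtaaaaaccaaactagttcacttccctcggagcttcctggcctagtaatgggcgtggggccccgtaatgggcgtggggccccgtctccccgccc

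After LIF2i withdrawal, 8 of the 9 members passed the test, 4 higher (Nodal, Lefty1, Acvr2b and Foxh1) and 4 lower (Lefty2, Tdgf1, Acvr1b and Smad2). Genes were tested with edgeR's quasi-likelihood test, with the replicate number as a block, and called at a Benjamini-Hochberg adjusted p under 0.05. By this rule 5967 of the 14648 genes tested (40.7%) were called, so a call alone was common; 21.1% were called higher and 19.7% lower. The members had a median log2 fold change of 0.05 against 0.01 over all genes. The CPM ranges of the groups did not overlap for 5 of 9 members, beside 40.7% of all genes. Levels are given as CPM, counts scaled to library size with TMM factors, and each group had 3 libraries. Without the block 5 members were called, Lefty2, Tdgf1, Acvr1b, Acvr2b and Foxh1.

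Lefty2, an antagonist of Nodal, had the largest change of the 9 members. It was at 748.6, 213 and 433.8 CPM with LIF2i in replicates 1, 2 and 3, and at 97.5, 47.2 and 62.0 CPM without. All LIF2i libraries lay above all libraries without LIF2i, although the LIF2i libraries spread widely among themselves. The log2 fold change was -2.65 (SE 0.16, 6.26-fold lower, edgeR adjusted p 6.94e-06, lower in 3 of 3 pairs), and Lefty2 kept its call under all 21 alternatives run for it (adjusted p 4.71e-49 to 0.00496).

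Lefty1, the paralogous antagonist, rose. It was at 54.3, 49.2 and 118.5 CPM with LIF2i and at 199.4, 110.1 and 163 CPM without. The groups overlapped, because the LIF2i library of replicate 3 lay above the library without LIF2i of replicate 2, while each same-numbered pair went up. The log2 fold change was 1.21 (SE 0.27, 2.32-fold, edgeR adjusted p 0.00666, higher in 3 of 3 pairs). The call was lost without the block (adjusted p 0.106), without the LIF2i library of replicate 1 (0.0601) and without all replicate 2 libraries (0.0675), and the full range over 21 alternatives was 8.67e-06 to 0.106.

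**Figure D1:**
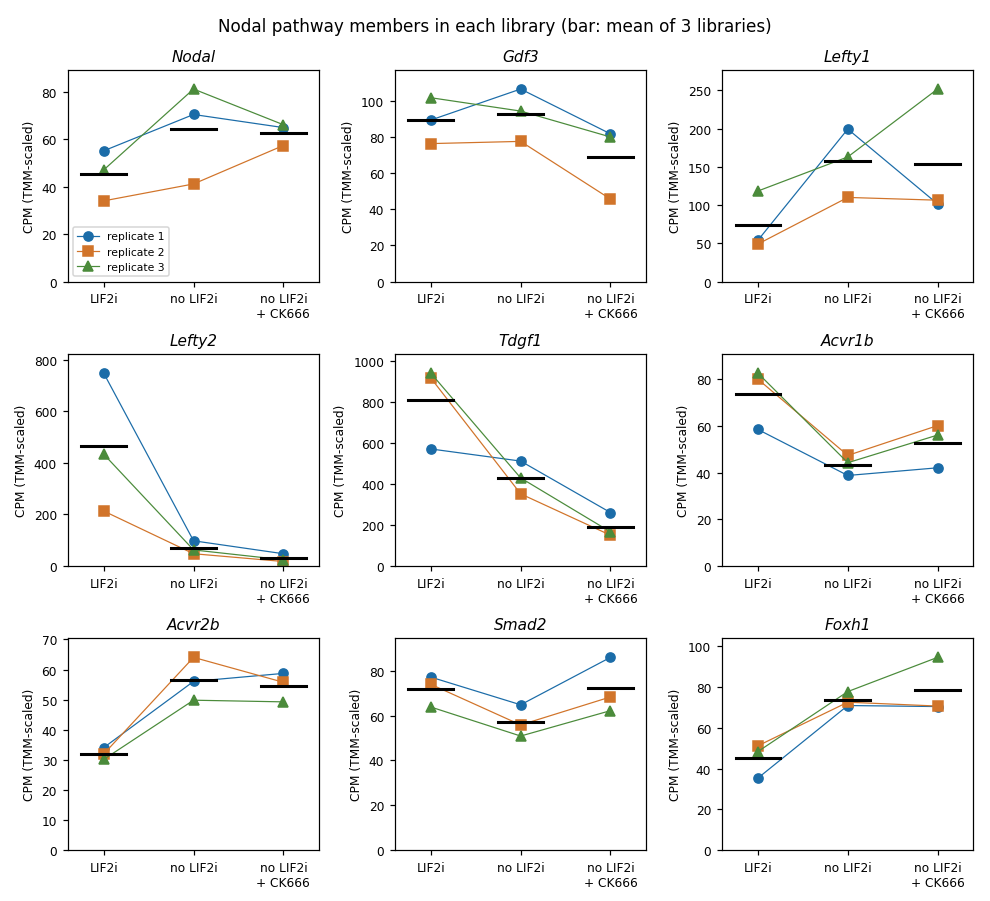
TMM-scaled CPM (vertical axis, from 0) of the 9 genes in each of the 9 libraries, by group along the horizontal axis; points are libraries, lines join the same replicate number and black bars are means of 3 libraries. Lefty2 drops from 213 to 748.6 CPM with LIF2i to 17.0 to 47.2 CPM with CK666, while Lefty1 lies higher in both withdrawn groups than its same-numbered LIF2i library.

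The make-up of the Lefty pool differed between the groups. Per transcript length, Lefty2 made up 89.6, 71.4 and 68.9% of the summed Lefty1 and Lefty2 TPM with LIF2i in replicates 1 to 3, and 25.9, 21 and 21% without. Lefty2 was thus the larger part of the pool in every LIF2i library and the smaller part in every library without LIF2i. The means were 76.6% ± 11.3 (SD, n = 3) with LIF2i and 22.6% ± 2.8 (n = 3) without, a difference of -54 percentage points (exact two-sided permutation test, p = 0.1, the smallest p that 3 against 3 can give; 0.3 after adjustment over 9 share tests). With the estimated counts of both genes summed into one feature, the log2 fold change was -1.17 (adjusted p 0.00688 by edgeR, SE 0.26), and it hid the opposite directions of its parts.

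**Figure D2:**
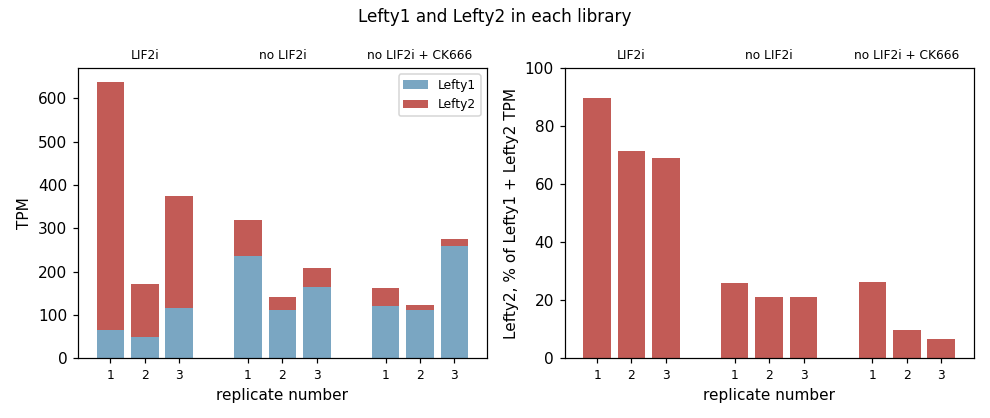
Left, TPM of Lefty1 and Lefty2 stacked for each library (vertical axis, TPM); right, Lefty2 as a percentage of the summed TPM (vertical axis, 0 to 100%); the horizontal axes give the replicate number within the 3 groups. The share of Lefty2 is 68.9 to 89.6% in the LIF2i libraries and at most 26.3% in every library without LIF2i.

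Among the ligands, Nodal rose modestly and Gdf3 did not pass the test. Nodal (chromosome 10, 61417972 to 61425338) was at 55.2, 34.1 and 47.1 CPM with LIF2i and at 70.5, 41.2 and 81.2 CPM without. Its groups overlapped through the library without LIF2i of replicate 2, and the log2 fold change was 0.48 (SE 0.16, 1.39-fold, edgeR adjusted p 0.0421, higher in 3 of 3 pairs). The call was lost without the block (adjusted p 0.211), in limma on log2(TPM + 1) (0.0642), and without the LIF2i library of replicate 2 (0.0995) or 3 (0.171), the library without LIF2i of replicate 1 (0.102) or 3 (0.226), the CK666 library of replicate 3 (0.0558), or all libraries of replicate 2 (0.0509) or 3 (0.333). Without the library lacking LIF2i of replicate 3, or without all replicate 3 libraries, the value was 0.32. Gdf3, a related ligand that can signal through the same receptors, was at 89.3, 76.3 and 101.6 CPM with LIF2i and at 106.4, 77.5 and 94.2 CPM without, with a log2 fold change of 0.05 (95% interval -0.26 to 0.37, edgeR adjusted p 0.787).

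Tdgf1, the co-receptor gene, had the highest mean TPM of the 9 in each group and was lower after withdrawal. It was at 571.5, 918.2 and 941.8 CPM with LIF2i and at 512.2, 352 and 429.8 CPM without. The groups did not overlap, but the replicate 1 pair differed little, by -0.16 on the log2 scale, against -1.38 and -1.13 in replicates 2 and 3. The log2 fold change was -0.94 (SE 0.26, 1.92-fold lower, edgeR adjusted p 0.0175, lower in 3 of 3 pairs). The direction in replicate 1 held for the gene and not for its main protein-coding transcript, which was at 397.3, 636.1 and 699.7 TPM with LIF2i and at 472.7, 270.6 and 331.9 TPM without, so its ranges overlapped. In the LIF2i library of replicate 1 a transcript annotated for nonsense-mediated decay held 39.8% of the Tdgf1 TPM. The call was lost without a filter on low counts (adjusted p 0.0568) and without the LIF2i library of replicate 2 (0.0877) or 3 (0.0946), the library without LIF2i of replicate 2 (0.0981) or 3 (0.0694), or all libraries of replicate 2 (0.15) or 3 (0.134). Tdgf1 shares 12.5% of its 31-base words with the pseudogene Tdgf1-ps1, which was listed at 63.9, 97.4 and 99.3 TPM with LIF2i and at 58.2, 44.7 and 47.6 TPM without. The division of reads between them is uncertain.

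The receptor genes moved in opposite directions. Acvr1b, which encodes the type I receptor ALK4, was at 58.5, 80.1 and 82.7 CPM with LIF2i and at 38.8, 47.4 and 44.3 CPM without, with no overlap. Its log2 fold change was -0.75 (SE 0.12, 1.68-fold lower, edgeR adjusted p 0.00108). Acvr2b, which encodes a type II receptor, was at 34.1, 31.9 and 30.1 CPM with LIF2i and at 56.1, 64.1 and 49.8 CPM without, again with no overlap. Its log2 fold change was 0.82 (SE 0.12, 1.76-fold, edgeR adjusted p 0.00081). Both went one way in 3 of 3 pairs and kept their call under all 22 alternatives run, at -0.80 to -0.67 for Acvr1b and 0.72 to 0.89 for Acvr2b.

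In every library Acvr1b had more RNA per length than Acvr1c, and Acvr2b more than Acvr2a. Other type I and type II receptor genes were not compared. Per length, Acvr2b made up 75.6% ± 2.94 (SD, n = 3) of the summed Acvr2a and Acvr2b TPM with LIF2i and 82.9% ± 5.18 (n = 3) without (exact permutation test, p = 0.2, 0.45 after adjustment over 9 share tests). Acvr2a, the other type II receptor gene of this pair, had a log2 fold change of 0.27 and did not pass (95% interval -0.10 to 0.64, edgeR adjusted p 0.223). Acvr1c, which encodes the alternative type I receptor ALK7, had at most 2 estimated counts in any library, under the floor of 3 counts, so Acvr1b held at least 99.9% of their summed TPM in every library.

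Of the transducers, Foxh1 rose and Smad2 gave a small decrease that depended on how transcript length was treated. Foxh1, the forkhead partner of SMAD2 and SMAD3, was at 35.3, 51.2 and 48.4 CPM with LIF2i and at 70.9, 72.6 and 77.8 CPM without, with no overlap. Its log2 fold change was 0.73 (SE 0.14, 1.65-fold, edgeR adjusted p 0.00325, higher in 3 of 3 pairs, called under all 22 alternatives). Smad2 was at 77.2, 74.0 and 63.8 CPM with LIF2i and at 64.8, 55.9 and 50.9 CPM without, and its groups overlapped. Its log2 fold change was -0.33 (SE 0.11, 1.26-fold lower, edgeR adjusted p 0.0409, lower in 3 of 3 pairs). With an offset for the effective length of its transcripts the value was -0.06 (adjusted p 0.798), and on log2(TPM + 1) it was -0.03 (0.916). The Smad2 call was kept in 8 of 22 alternatives and lost with library totals only (adjusted p 0.0906), without a filter (0.104), without the block (0.226), without any single library of replicates 2 and 3 (0.07 to 0.171), the library without LIF2i of replicate 1 (0.129), or all libraries of replicate 2 (0.261) or 3 (0.231).

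**Figure D3:**
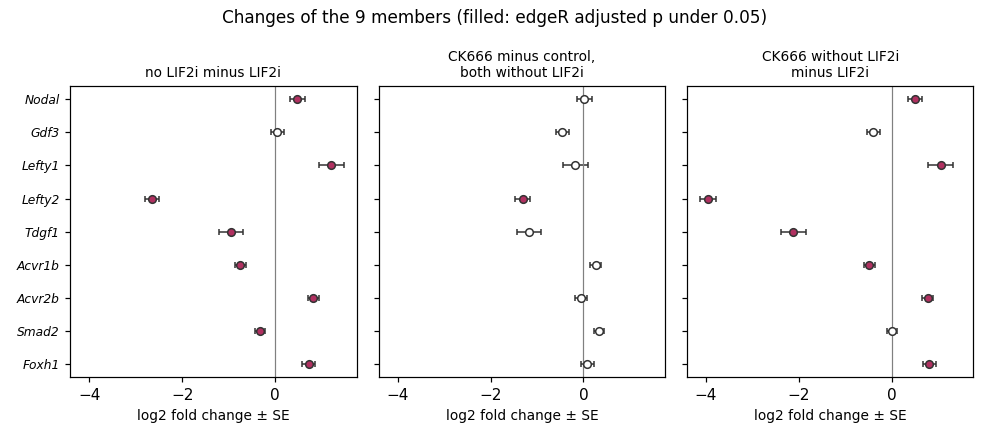
Log2 fold change with its standard error (horizontal axis) for the 9 genes in the 3 comparisons, fitted with the replicate block; filled points passed an edgeR adjusted p under 0.05. For withdrawal 8 points are filled, for CK666 only Lefty2, at -1.31, and for CK666 against LIF2i 7 points.

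Lefty2 was lower with CK666 during withdrawal than in withdrawn controls, and no other member passed the test. Called genes numbered 1 of 9 members, against 300 of 14648 genes (2.05%), with 1.15% called higher and 0.894% lower. Only Tdgf1 among the 9 had ranges that did not overlap, beside 16.5% of all genes. The members had a median log2 fold change of -0.05, against 0.02 over all genes. By edgeR 4 members had an unadjusted p under 0.05, beside 2890 of the 14648 genes. Without the block 0 members were called and 2 had an unadjusted p under 0.05, beside 0 and 1251 of all genes. DESeq2 and limma voom each called 2 members, both lower, beside 1136 and 535 of all genes. Both this comparison and the one for withdrawal use the control libraries without LIF2i, so their values stand side by side only.

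Lefty2 was at 47.2, 17.0 and 23.5 CPM with CK666, against 97.5, 47.2 and 62.0 CPM in controls without LIF2i. Each CK666 library was the lower of its pair, and the groups touched where the CK666 library of replicate 1 met the control of replicate 2. The log2 fold change was -1.31 (SE 0.16, 2.48-fold lower, edgeR adjusted p 0.0116, lower in 3 of 3 pairs). The call was lost without the block (adjusted p 0.529), without the control library without LIF2i of replicate 2 (0.0718) or 3 (0.0775), the CK666 library of replicate 2 (0.0858) or 3 (0.0598), or all libraries of replicate 2 (0.0809) or 3 (0.197). The values over all 21 alternatives ran from -1.47 to -1.12. With the counts of Lefty1 and Lefty2 summed, the CK666 difference was -0.31 (adjusted p 0.566 by edgeR, SE 0.26); Lefty2 held 8.55 to 32.8% of those counts in these 6 libraries.

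Tdgf1 was next in size and just missed the threshold. It was at 260.7, 149.9 and 166.3 CPM with CK666, all below the 352 to 512.2 CPM of the controls. The log2 fold change was -1.17 (SE 0.26, 95% interval -1.76 to -0.59, edgeR adjusted p 0.0554, lower in 3 of 3 pairs). It was called in 7 of 22 alternatives: with library totals only (adjusted p 0.0435), by DESeq2 (0.000108), by limma voom (0.0303), and without the LIF2i library of replicate 1 (0.000586) or 2 (0.0475), the CK666 library of replicate 1 (0.0337) or all replicate 1 libraries (0.000448). Its largest adjusted p was 0.442. Tdgf1-ps1 was listed at 34.4, 20.1 and 21.2 TPM with CK666.

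Gdf3 was at 81.7, 45.6 and 79.9 CPM with CK666, a log2 fold change of -0.45 (adjusted p 0.12 by edgeR, SE 0.14, lower in 3 of 3 pairs). It was called without the LIF2i library of replicate 1 (adjusted p 0.0291) and without all replicate 1 libraries (0.0439). In the libraries of replicates 2 and 3 alone, 3 members were called for CK666, Lefty2, Tdgf1 and Gdf3, all lower, beside 1811 of all genes.

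The other 6 members were not called with CK666. Nodal was at 65.0, 57.4 and 66.2 CPM, with a log2 fold change of 0.02 (95% interval -0.35 to 0.39, edgeR adjusted p 0.968) whose sign changed between alternatives. Lefty1 was at 101.6, 106.5 and 251.7 CPM, below its control in replicate 1 and above it in replicate 3, with a log2 fold change of -0.17 (95% interval -0.76 to 0.43, edgeR adjusted p 0.781). That value turned to 0.23 without the control library without LIF2i of replicate 1, 0.08 without the CK666 library of replicate 1 and 0.26 without all replicate 1 libraries. Acvr2b was at -0.05 (95% interval -0.33 to 0.22) and Foxh1 by 0.08 (-0.24 to 0.40). Smad2 was at 0.33 (SE 0.11), higher in 3 of 3 pairs, with a 95% interval of 0.08 to 0.58 that lay above 0 and an edgeR adjusted p of 0.145. Acvr1b was at 0.27 (SE 0.12), also higher in 3 of 3 pairs, with a 95% interval of -0.00 to 0.54 and an edgeR adjusted p of 0.254.

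Lefty2 made up 26.3, 9.87 and 6.57% of the Lefty TPM with CK666, against 25.9, 21 and 21% in the controls. Replicate 1 was as high as its control, while replicates 2 and 3 were lower. The mean of 14.2% ± 10.6 (SD, n = 3) was not separated from 22.6% ± 2.8 (n = 3) by the exact two-sided permutation test (difference -8.39 points, p = 0.4, 0.514 after adjustment). Acvr2b made up 83.2% ± 2.13 of its receptor pair, against 82.9% ± 5.18 in the controls (exact permutation test, p = 0.9).

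Set against self-renewing cells, cells withdrawn with CK666 had lower Lefty2, Tdgf1 and Acvr1b and higher Nodal, Lefty1, Acvr2b and Foxh1. These were 7 of 9 members, beside 5408 of 14648 genes called (36.9%), 19.8% higher and 17.1% lower, and the members' median log2 fold change was 0.00 against 0.01 over all genes. Ranges did not overlap for 5 of 9 members, beside 37.3% of all genes. Lefty2 changed by -3.96 (SE 0.17, 15.5-fold lower, edgeR adjusted p 2.48e-06) and Tdgf1 by -2.12 (SE 0.27, 4.33-fold lower, edgeR adjusted p 0.00041), both with no overlap between groups and called under all their alternatives. Acvr2b changed by 0.77 (adjusted p 0.00131 by edgeR, SE 0.12) and was called under all 22 alternatives. Foxh1 changed by 0.81 (adjusted p 0.00216 by edgeR, SE 0.14) and lost its call only without all replicate 3 libraries, among 22 alternatives (0.0518).

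Lefty1, Nodal and Acvr1b passed less firmly in that comparison. Lefty1 changed by 1.05 (adjusted p 0.014 by edgeR, SE 0.26), and lost its call without the block (0.129), without the LIF2i library of replicate 1 (0.0865) or 2 (0.0515), the CK666 library of replicate 2 (0.0575) or 3 (0.0885), or all replicate 2 libraries (0.121). Nodal changed by 0.50 (adjusted p 0.0392 by edgeR, SE 0.16), with all CK666 libraries above all LIF2i libraries. It lost its call in 9 of 22 alternatives, among them without the block (0.258) and without the CK666 library of replicate 2, where the value was 0.31 (0.211). The others were limma on log2(TPM + 1) (0.0738) and leaving out the library without LIF2i of replicate 1 (0.0583), the LIF2i library of replicate 2 (0.112) or 3 (0.155), the CK666 library of replicate 3 (0.0619), or all libraries of replicate 2 (0.22, at 0.34) or 3 (0.155). Acvr1b changed by -0.48 (adjusted p 0.0117 by edgeR, SE 0.12), and lost its call without the block (0.124), on log2(TPM + 1) (0.058), without the LIF2i (0.0719) or CK666 library (0.0566) of replicate 3, and without all libraries of replicate 2 (0.0653) or 3 (0.147). Smad2 was at 0.00 (95% interval -0.25 to 0.25), at 0.24 with the length offset (adjusted p 0.243) and at 0.23 on log2(TPM + 1) (0.335), and Gdf3 was at -0.40 (SE 0.14), with an adjusted p of 0.05 after rounding that was not below the threshold. Gdf3 was called with all libraries under RLE scaling (adjusted p 0.046), the stricter filter (0.0468), DESeq2 (0.037), limma voom (0.0455) and with the Lefty genes summed (0.05 after rounding, below the threshold), and also without the LIF2i library of replicate 1 (0.0133) or all replicate 1 libraries (0.0144). Its largest adjusted p over the alternatives was 0.335, without the block.

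Across the 9 members, levels per length (TPM) set the order within each group, and ranges were compared between neighbours in that order unless other genes are named. With LIF2i, Tdgf1 was highest at 694 ± 35.2 TPM (SD, n = 3), followed by Lefty2 at 317 ± 231 TPM and Lefty1 at 77.3 ± 35.1 TPM. Tdgf1 and Lefty2 were each separate in range from the next gene, and Lefty1 overlapped Gdf3. Gdf3, at 67.6 ± 16.6 TPM, and Foxh1, at 56.0 ± 2.82 TPM, overlapped in range. Nodal (34.7 ± 14.2), Smad2 (27.2 ± 12.5), Acvr1b (23.7 ± 1.35) and Acvr2b (18.2 ± 3.69 TPM) closed the order. Foxh1 was separate from Nodal and Acvr1b from Acvr2b, with overlap from Nodal through Smad2 to Acvr1b. Without LIF2i Tdgf1 stayed first at 387 ± 131 TPM and Lefty1 was second at 170 ± 62.9 TPM, both separate from the next. There Foxh1 (97.7 ± 10.7), Gdf3 (74.2 ± 19.2), Lefty2 (51.8 ± 27.4), Nodal (49.3 ± 17.6), Acvr2b (33.2 ± 4.48) and Smad2 (25.3 ± 4.67 TPM) each overlapped with their neighbour, and Acvr1b was lowest at 14.5 ± 0.402 TPM, apart from Smad2. With CK666 Tdgf1 (174 ± 84.5 TPM), Lefty1 (163 ± 82.5 TPM) and Foxh1 (99.7 ± 15.8 TPM) were at the top. Lefty1 overlapped both Tdgf1 and Foxh1, while Tdgf1 and Foxh1 did not overlap, and Foxh1 was apart from Gdf3. Gdf3 (53.0 ± 19.2) and Nodal (47.0 ± 6.72 TPM) overlapped next. Acvr2b (33.1 ± 3.98), Smad2 (30.6 ± 6.04), Lefty2 (24.4 ± 16.3) and Acvr1b (17.2 ± 1.8 TPM) followed, each overlapping its neighbour. Nodal was apart from Acvr2b but overlapped Lefty2, which spanned 12.1 to 43.0 TPM.

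Among the other genes of the pathway, 38 were listed and 31 tested. After withdrawal 18 of the 31 were called by edgeR, 13 higher and 5 lower, a share of calls to be read against 40.7% of all genes, with a median log2 fold change of 0.37 against 0.01. The excess of higher calls depended on single libraries: the calls were 5 higher and 5 lower without the LIF2i library of replicate 3, 6 and 4 without the library lacking LIF2i of replicate 3, and 7 and 4 without that of replicate 2. Without all replicate 2 libraries they were 6 higher and 4 lower, and without all replicate 3 libraries 1 higher and 5 lower. With CK666 0 of the 31 were called by edgeR, beside 2.05% of all genes. An unadjusted p under 0.05 by edgeR was found for 6 of the 31, beside 2890 of all 14648 genes. DESeq2 called 5, beside 1136 of all genes, and limma voom and limma on log2(TPM + 1) called 0. CK666 against LIF2i gave 18 calls, 11 higher and 7 lower, against 36.9% of all genes. These became 6 higher and 5 lower without the LIF2i or the CK666 library of replicate 3, and 2 higher and 5 lower without all replicate 3 libraries.

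The SMADs and their cofactors gave 8 higher and 1 lower among 13 tested after withdrawal, where 21.1% of all genes were called higher and 19.7% lower. Since the whole pathway list kept 5 higher calls without the LIF2i library of replicate 3 and 1 without all replicate 3 libraries, at most that many of these 8 were then called. Skil, a SMAD co-repressor and feedback target, was at 146.2, 132.8 and 124.3 CPM with LIF2i and at 415.9, 333.8 and 262.6 CPM without. Its log2 fold change was 1.31 (adjusted p 5.86e-05 by edgeR, SE 0.12), with no overlap. Smad4, the common partner SMAD, changed by 0.41 (adjusted p 0.0211 by edgeR, SE 0.12). Smad3 was called at 0.65 (adjusted p 0.0361 by edgeR, SE 0.21), but the direction of its group means differed between CPM and TPM. It was at 47.0, 24.3 and 22.4 CPM with LIF2i and at 47.3, 50.2 and 41.5 CPM without, with overlap and a replicate 1 pair that was almost level. In TPM it was at 34.2, 6.31 and 5.89 with LIF2i and at 15.4, 14.4 and 11.4 without, lower in replicate 1 and higher in replicates 2 and 3, and the mean TPM was 15.5 with LIF2i and 13.7 without. Smad7, the inhibitory SMAD, was the one lowered, at -0.67 (adjusted p 0.00789 by edgeR, SE 0.16).

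Of the other ligands and proteases, Inhbb, which encodes an activin beta subunit, went from 17.6, 12.6 and 12.6 CPM with LIF2i to 0, 0.623 and 0.162 CPM without, where it had 0, 12 and 3 counts. Its log2 fold change was -5.90 (adjusted p 0.00018 by edgeR, SE 0.68), a size that is uncertain near 0. With CK666 it was at 1.09, 1.87 and 1.23 CPM, all above the controls without LIF2i, but the difference of 2.47 (SE 0.69) did not pass (edgeR adjusted p 0.0936). Pcsk6, a convertase that can process Nodal, went from 210.2, 125.2 and 115.9 CPM to 27.4, 15.3 and 20.0 CPM, a log2 fold change of -2.83 (adjusted p 6.85e-06 by edgeR, SE 0.17). Furin, another convertase of the ligand precursor, changed by 0.67 (adjusted p 0.0219 by edgeR, SE 0.20). Gdf1, whose product pairs with Nodal, was called at 3.95 (adjusted p 0.0284 by edgeR, SE 1.19) but shares 100% of its exonic bases with Cers1 and Upf1, so its counts are uncertain.

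Genes known as targets of Nodal or activin signals went both ways. After withdrawal Fgf8, a secreted growth factor gene, and Mixl1, a homeobox gene of the primitive streak, were called higher, from at most 12 and 2 counts per LIF2i library. Both passed the filter on low counts through the withdrawn groups, where they are high, so their calls are not independent of that filter. Nanog was called lower at -2.12 (adjusted p 5.2e-05 by edgeR, SE 0.20). With CK666 against LIF2i, 5 of the 8 targets tested were called, 2 higher and 3 lower. This stands beside 36.9% of all genes called, 19.8% higher and 17.1% lower. Mixl1 was called higher at 4.32 (adjusted p 0.0122 by edgeR, SE 1.07), from at most 2 counts per LIF2i library to 24, 10 and 17 with CK666. Its LIF2i counts lie under the floor of 3 counts, so the size is uncertain. Eomes and Gsc were called lower at -1.09 (SE 0.36) and -2.57 (SE 0.68), with edgeR adjusted p of 0.0384 and 0.0166. Gsc had only 4, 3 and 8 counts with CK666, so its size is uncertain. Against controls without LIF2i Mixl1 was at 0.11 (SE 0.74), and Eomes and Gsc were at -1.31 (SE 0.36) and -1.56 (SE 0.69), with all CK666 libraries below all controls and edgeR adjusted p of 0.0906 and 0.249.

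**Figure D4:**
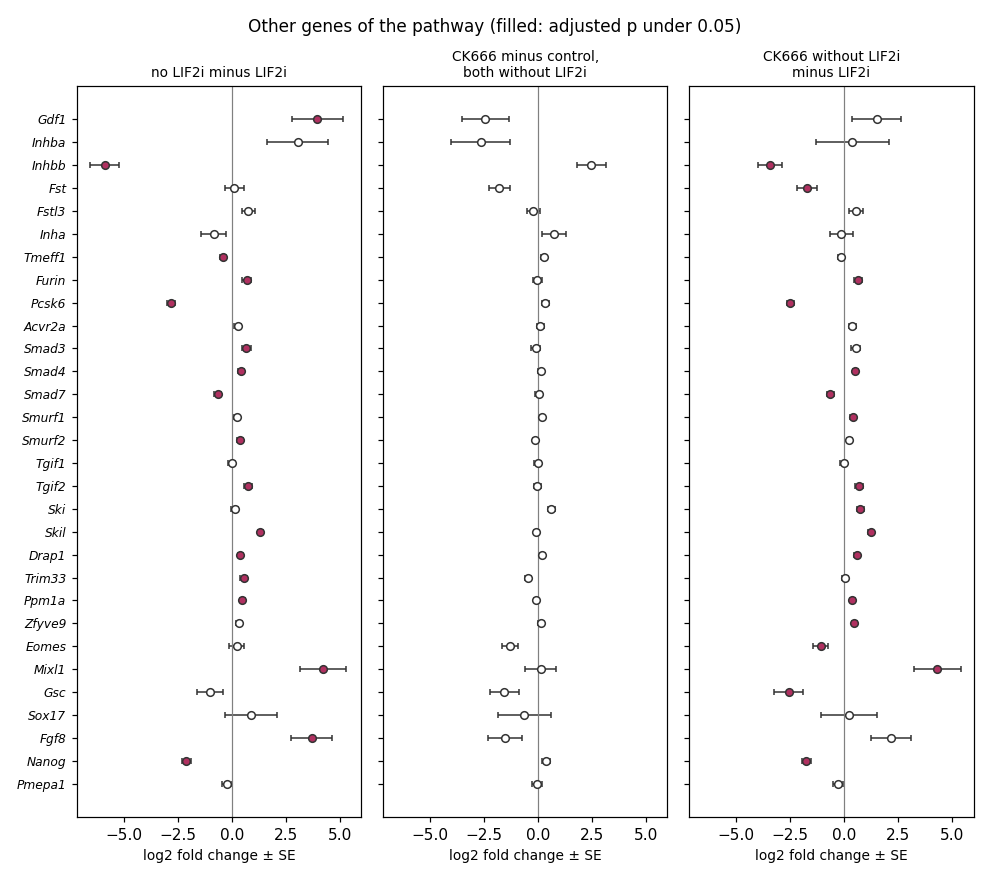
Log2 fold change with its standard error (horizontal axis) for 30 of the other pathway genes that were tested, in the order ligands, antagonists, proteases, receptor, SMADs with cofactors, and targets; filled points passed an edgeR adjusted p under 0.05. For withdrawal 17 points are filled, for CK666 none, and for CK666 against LIF2i 17.

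The protein-coding genes whose levels followed each member most closely over the 9 libraries were ranked by Pearson's r of log2 CPM among 9489 genes, as a description. For Nodal they were Prdm4 (0.937), Mnt (0.927) and Mkx (0.924), and for Gdf3 Zfp866 (0.915), Ythdf3 (0.906) and Pygo2 (0.903). For Lefty1 they were Ctdnep1 (0.939), Prkd3 (0.933) and Elavl3 (0.924). For Lefty2 they were BC030867 (0.982), Tacc2 (0.981) and Gm4631 (0.981). These r values share the 3 groups and the split between replicate 1 and the others.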

How the data were processed

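RNA from 9 cultures was captured by poly-T beads and made into libraries with a NEBNext Ultra kit, per the labels' protocols; the submitters' processing notes name FastQC, cutadapt 1.8.1, kallisto and sleuth and the builds mm10 and GRCh38, without roles. The authors deposited, for each library, estimated counts for 119414 mouse Ensembl transcripts, so a read that fits more than one transcript is shared out. Their deposited TPM also allow for effective length, per the file headers. The transcript release and the use of strand are not given in the sources used here.

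A gene was found in GENCODE M21 (GRCm38) for 116640 transcripts (97.7%); the rest held 0.895 to 1.08% of the counts and were left out. Estimated counts were summed per gene and rounded to whole numbers. All 9 libraries entered one fit in edgeR 4.0.16 (R 4.3.3), with TMM scaling, edgeR's expression filter, the replicate number as a block and 4 residual degrees of freedom; p-values were adjusted over all 14648 genes by Benjamini-Hochberg. Standard errors and 95% intervals were derived from the test statistic. The study's design text calls the replicates paired, and deviations from group means correlated between same-numbered libraries at a median r of 0.41 (0.30 to 0.65). Between differently numbered libraries the median r was -0.36 (-0.53 to 0.29). Those values were negative in pairs with replicate 1 and 0.21 to 0.29 between replicates 2 and 3. Part of the pairing is thus the split between replicate 1 and the others. At these depths 3 counts, the floor, correspond to 0.133 to 0.178 CPM; the floor covers counting error only. No pair of replicates agreed within sampling noise (chi-square divided by genes, 18.1 to 234). Nothing in the labels says more than that the replicates are biological. With the block, the edgeR p-values measure the spread left between these cultures once differences between replicate numbers are removed.

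Shares within a library were compared by exact permutation tests that did not use the pairing by replicate number. Named genes are the members, pathway genes that were called or are partners of a member, and the 3 genes most like Nodal, Lefty1, Lefty2 and Gdf3 no lower than 3 in mean log2 CPM. The members, lists and tests were chosen with earlier results of these data known. The alternatives were other scalings, filters, tools (DESeq2 1.42.0, limma 3.58.1), a length offset, TPM with a pseudocount of 1, summed Lefty genes, no block and left-out libraries. On counts simulated for 14389 genes for the withdrawal comparison, edgeR recovered 62 of 66 genes changed by 2 on the log2 scale, 43 of 67 changed by 1 and 5 of 67 changed by 0.5, with 12 false calls. In that simulation few genes changed and all replicate numbers differed alike. Here 40.7% of all genes were called for withdrawal and replicate 1 stood apart, so these rates do not give the recovery in these data. The value of 1 pathway gene, which is in the counts, and 1 sequence comparison are not reported here.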

Additional observations from a re-analysis of the deposited data

How the results depend on the processing

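Acvr1b, Acvr2b, Foxh1 and Lefty2 for withdrawal, and Lefty2, Tdgf1 and Acvr2b for CK666 against LIF2i, kept their direction and call under all alternatives run for them. Without the replicate block, the counts for withdrawal were 5 members, 8 pathway genes and 3509 of all genes; for CK666 they were 0 members and 0 of all genes (1251 at an unadjusted p under 0.05), and for CK666 against LIF2i 4 members, 9 pathway genes and 2966 genes. For withdrawal, limma on log2(TPM + 1) called 11 pathway genes. For CK666, 2 members were called with library totals only, 2 by DESeq2 and 2 by limma voom, and 0 with Lefty1 and Lefty2 summed, where Lefty2 is no longer a feature of its own. The pathway genes called for CK666 were 3 without a filter and 5 by DESeq2. All genes called for CK666 were 565 without a filter, 1136 by DESeq2, 535 by limma voom, 149 with the length offset and 42 by limma on log2(TPM + 1). Values near 0 changed sign: Nodal with CK666 to -0.03 without the block, -0.00 by limma voom and -0.01 on log2(TPM + 1), Acvr2b with CK666 to 0.02 with the length offset, and Smad2 for CK666 against LIF2i to -0.00 with RLE scaling and -0.00 by DESeq2; its largest value was 0.24, with the length offset. The Acvr2b share with CK666 changed to -2.02 points on estimated counts. Apart from the length offset, TPM and summed genes, the cause was not tested.

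With libraries left out, counts for withdrawal ran from 4 to 8 members, 6 to 19 pathway genes and 3099 to 6588 genes. For CK666 they ran from 0 to 3 members, 0 to 5 pathway genes and 0 to 1811 genes, and for CK666 against LIF2i from 4 to 8 members, 7 to 19 pathway genes and 2413 to 6129 genes. The Lefty2 share differed by -57 to -49.1 points for withdrawal, -12.8 to -5.36 for CK666 and -62.8 to -61.9 for CK666 against LIF2i. The Acvr2b share differed by 4.76 to 11.5, -1.25 to 1.81 and 6.06 to 10.3 points, and the Acvr1b share by -0.0868 to 0.00779, 0.0338 to 0.0979 and 0.0111 to 0.0416 points. Log2 values that changed sign ran from -0.04 to 0.17 for Gdf3 in withdrawal. For CK666 they ran from -0.23 to 0.19 for Nodal, -0.53 to 0.26 for Lefty1, -0.13 to 0.04 for Acvr2b and -0.02 to 0.19 for Foxh1, and for CK666 against LIF2i from -0.07 to 0.05 for Smad2. Depth limits chiefly the genes with few counts, such as Inhbb, Mixl1 and Fgf8.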

Other observations

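The division between transcripts varied between libraries in several members, and those given here were chosen after their values were seen. For Lefty2 the protein-coding transcript held 98.0, 91.9 and 95.7% of the gene's TPM with LIF2i, 83.4, 93.1 and 82.9% without, and 72.3, 78.8 and 76.4% with CK666. The remainder was a transcript of 422 bases annotated as a retained intron. Its own level with CK666 was above its control without LIF2i in 1 of 3 pairs, at 11.9, 2.58 and 4.29 TPM, against 13.7, 2.05 and 7.46 TPM without LIF2i and 11.6, 9.88 and 11.2 TPM with it. The protein-coding transcript was at 31.1, 9.57 and 13.9 TPM with CK666 against 68.8, 27.5 and 36.1 TPM without, so the larger share went with the lower protein-coding level. The retained-intron values with CK666 rest on 26.7, 6.06 and 9.89 estimated counts. For Lefty1 a retained-intron transcript held 0 to 17.4% over the 9 libraries. For Acvr2b a protein-coding transcript of 2093 bases held 12.1 to 38.5% and a retained-intron transcript of 544 bases 0 to 16.7%. The Tdgf1 transcript annotated for nonsense-mediated decay held at most 5.8% outside the LIF2i library of replicate 1. For Smad2 the protein-coding transcript of 972 bases held 11.4% and 5.54% with LIF2i in replicates 1 and 2 and almost none in replicate 3, 8.11, 20.7 and 16.3% without and 18.0, 18.2 and 21.4% with CK666. The division of reads between transcripts of one gene carries no error in the deposited values, and these differences were not tested.

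Some pathway genes were at or near the filter on low counts, and the 3 given here were chosen after their values were seen. Cer1, a secreted antagonist of Nodal, was listed at 0 counts in all 9 libraries. Cfc1, which encodes a co-receptor related to Cripto, was at 0, 1 and 0 counts with LIF2i, 2, 7 and 7 without and 3, 6 and 20 with CK666. Inhba, which encodes another activin subunit, passed the filter at 14, 15 and 12 counts without LIF2i, against 0, 0 and 7 with CK666, and its difference of -2.67 (SE 1.38) did not pass (edgeR adjusted p 0.321).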
